A study of Mus musculus with 8 samples.

Results

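Lrrn3, Dact2, Rnf213 and Cacna2d2 are 4 of the 55573 genes measured in hind trunks of embryonic day 9.5 mice. They were picked by symbol because their read counts were higher in embryos without Prtg than in the others. All 4 were among the 16262 genes that passed the filter on low counts. Their higher level in the knockouts is therefore how they were found, and it is given here as a description without a test.

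Each library was made from poly(A) RNA of the trunk behind a cut placed between somites 12 and 13, in C57BL/6 embryos. There were 2 wild-type libraries (WT), 3 from embryos with 1 knockout allele of Prtg (Het, Prtg+/-) and 3 from embryos with 2 (KO, Prtg-/-), and n is 2, 3 and 3 throughout. Prtg encodes protogenin, a receptor of the immunoglobulin superfamily. Both parents of every embryo were heterozygous for the allele, so the WT embryos also developed in heterozygous mothers. The labels name neither litters nor the deleted part of the gene, and p-values therefore measure only the spread between these samples. Each library carries the genotype and number pair of its column (KO 1-3, for example). Libraries with the same leading number form a column set here; neither labels nor table say what that number stands for.

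The libraries held between 16874860 and 17511964 counts. KO 1-3 stood apart. Mitochondrial transcripts made up 0.634% of its counts against 1.10% to 1.30% in the other libraries, and its counts differed from those of the other KO libraries by 21.5 and 24.5 times the variance of counting, against 4.53 to 9.84 times for the other pairs of 1 genotype. Values of the 4 genes are therefore also given without it. So are those of related, partner and neighbouring genes where its removal moved them by over 1.5 times. Marker genes and genes of similar profile are given with all libraries only. Prtg itself was at 317 and 385 CPM (counts scaled by library total and TMM factor) in WT, 240 to 281 in Het and 237 to 268 in KO, so Het and KO overlapped, and whole-gene counts check the knockout only weakly. All 8 markers fixed for the posterior trunk, among them T, Cdx2, Cdx4 and Tbx6, were tested, with T at 49.0 to 65.9 FPKM (counts scaled by exonic length and library total, without TMM). Of 6 genes of anterior tissue, 2 passed the filter: the heart gene Myl7, at 0.791 to 2.13 FPKM, and the midbrain gene En1, at up to 0.407 FPKM. The forebrain genes Otx2 and Six3 were at or below 0.0278 FPKM in every library.

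The 4 genes belong to unrelated families. Lrrn3 encodes a membrane protein with leucine-rich repeats outside the cell, of a family best known from the developing nervous system. Dact2 encodes a cytoplasmic scaffold that binds Dishevelled, the hub of WNT signalling, and zebrafish Dact2 promotes the breakdown of type I receptors of Nodal ligands. Rnf213 encodes a very large ubiquitin ligase with an ATPase core, known from vascular disease in humans and as a gene induced by interferon. Cacna2d2 encodes an auxiliary subunit that brings voltage-gated calcium channels to the cell surface. It is best known from cerebellar neurons of the mouse.

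The promoters are printed because the genes were higher in the same libraries. RefSeq (GRCm38.p6) gave a window from 250 bases before to 50 after the start site for 3 of the 4 genes, Cacna2d2, Rnf213 and Dact2. Each is written 5′ to 3′ on the strand of its gene, and capitals mark the motif matches.
Cacna2d2 promoter, chr9:107399630-107399929, plus strand: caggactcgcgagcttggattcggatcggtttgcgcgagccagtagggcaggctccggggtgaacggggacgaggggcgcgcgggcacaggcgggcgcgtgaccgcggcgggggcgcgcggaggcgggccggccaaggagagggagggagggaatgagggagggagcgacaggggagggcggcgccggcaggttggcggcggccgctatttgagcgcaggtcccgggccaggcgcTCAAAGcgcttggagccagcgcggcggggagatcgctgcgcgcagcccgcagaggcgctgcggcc
Rnf213 promoter, chr11:119389849-119390148, plus strand: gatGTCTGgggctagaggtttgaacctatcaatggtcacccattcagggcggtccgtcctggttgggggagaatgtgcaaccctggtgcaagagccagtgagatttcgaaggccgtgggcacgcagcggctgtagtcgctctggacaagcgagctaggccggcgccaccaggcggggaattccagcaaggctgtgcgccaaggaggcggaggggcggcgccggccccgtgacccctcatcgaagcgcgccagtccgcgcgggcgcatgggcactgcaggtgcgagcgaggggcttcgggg
Dact2 promoter, chr17:14203782-14204081, minus strand: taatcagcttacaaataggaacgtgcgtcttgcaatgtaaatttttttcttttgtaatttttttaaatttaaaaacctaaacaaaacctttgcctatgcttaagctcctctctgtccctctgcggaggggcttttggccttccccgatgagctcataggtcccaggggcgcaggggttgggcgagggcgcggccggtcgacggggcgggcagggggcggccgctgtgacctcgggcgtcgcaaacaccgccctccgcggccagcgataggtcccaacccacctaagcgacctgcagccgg

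The motifs searched on both strands were the SMAD core CAGAC, the LEF/TCF core TCAAAG, an extended Nr6a1 motif, TCAAGGTCA, and an interferon response core of 2 GAAA repeats with any 2 bases between them. The LEF/TCF and Nr6a1 motifs share their first letters, but neither contains the other. The Cacna2d2 window held 1 LEF/TCF core, which starts 15 bases before the start site. The Rnf213 window held 1 SMAD core on the opposite strand, which starts 247 bases before the start site, and the Dact2 window held none of the 4 motifs. Of 32544 RefSeq promoter windows, 49.5% held the SMAD core, 16.0% the LEF/TCF core, 0.412% the Nr6a1 motif and 3.45% the interferon core. No motif was thus found in more than 1 of the 3 windows. In base composition they ranged from 56.7% G and C with 23 CG dinucleotides in Dact2 and 67.0% with 27 in Rnf213 to 75.7% with 43 in Cacna2d2, against medians of 53.0% and 7.0 over all windows. The RefSeq start of Rnf213 lies before the start of the gene in the deposited table (chromosome 11, 119393100 to 119487418, plus strand). The other windows lie wholly inside the deposited genes, as Cacna2d2 starts at 107399612 there and Dact2, on the minus strand, at 14204304. Each window thus belongs to the RefSeq transcript and not to the start of the gene in the deposited table.

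Lrrn3 (ENSMUSG00000036295) lies on chromosome 12 from 41451668 to 41486431 on the minus strand (GRCm38), with 2 exons. Its level was 1.10 and 0.936 FPKM in the WT libraries 1-2 and 2-1. In the Het libraries 1-1, 2-4 and 2-5 it was 1.38, 0.853 and 1.21 FPKM, and in the KO libraries 1-3, 2-2 and 2-3 it was 2.87, 3.30 and 2.65 FPKM. All KO libraries were higher than all others, and WT and Het overlapped. The lowest KO library was 1.92 times the highest of the others in CPM. The log2 fold change of KO against the mean of WT and Het was 1.44 ± 0.16 (SE), a 2.72-fold difference and the largest of the 4 genes. Each library held 56 to 90 counts in WT and Het and 179 to 218 in KO, so counting alone gives an error of 6.77% to 13.4% per library.

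Dact2 (ENSMUSG00000048826; chromosome 17, 14195052 to 14204304, minus strand) had the highest level of the 4 genes per length. It was measured at 8.19 and 9.71 FPKM in WT 1-2 and 2-1, at 7.84, 7.98 and 8.49 FPKM in Het 1-1, 2-4 and 2-5, and at 14.4, 13.2 and 13.8 FPKM in KO 1-3, 2-2 and 2-3. The KO libraries were close together and all above the rest, with a highest to lowest ratio of 1.10 in CPM. WT 2-1 was the highest library outside the knockouts. The log2 fold change against the mean of WT and Het was 0.70 ± 0.08, or 1.63-fold, on 447 to 562 counts in WT and Het libraries and 762 to 830 in KO libraries.

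Rnf213 (ENSMUSG00000070327) lies on chromosome 11 from 119393100 to 119487418, with 73 distinct exons and 16888 exonic bases. Its level was 3.27 and 2.94 FPKM in WT 1-2 and 2-1, 3.19, 2.86 and 3.35 FPKM in Het 1-1, 2-4 and 2-5, and 5.89, 5.21 and 4.33 FPKM in KO 1-3, 2-2 and 2-3. The knockouts were again all higher, but they were spread more widely than those of Dact2, with a highest to lowest ratio of 1.36 in CPM against 1.18 over WT and Het together. The log2 fold change was 0.73 ± 0.09, or 1.65-fold. At 820 to 1692 counts per library the counting error was 2.43% to 3.49%.

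Cacna2d2 (ENSMUSG00000010066; chromosome 9, 107399612 to 107529343, plus strand) was the lowest of the 4 per length, at the 10.5th percentile of mean FPKM among tested genes. It lies 34.5 Mb from Prtg on the same chromosome. Its level was 0.265 and 0.301 FPKM in WT 1-2 and 2-1, 0.186, 0.178 and 0.188 FPKM in Het 1-1, 2-4 and 2-5, and 0.599, 0.456 and 0.417 FPKM in KO 1-3, 2-2 and 2-3. Here the 3 genotypes did not overlap: Het was lowest, WT in the middle and KO highest. The log2 fold change of KO was 0.79 ± 0.25 against WT, 1.41 ± 0.23 against Het and 1.10 ± 0.19 against their mean. These values rest on 24 to 41 counts in WT and Het and 58 to 81 in KO. The exact 95% Poisson intervals of 41 counts in WT 2-1 (29.4 to 55.6) and 58 in KO 2-3 (44.0 to 74.98) overlap, so no difference is read within this pair of libraries. PCR copies are counted too, so such intervals cover counting error only.

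**Figure D1:**
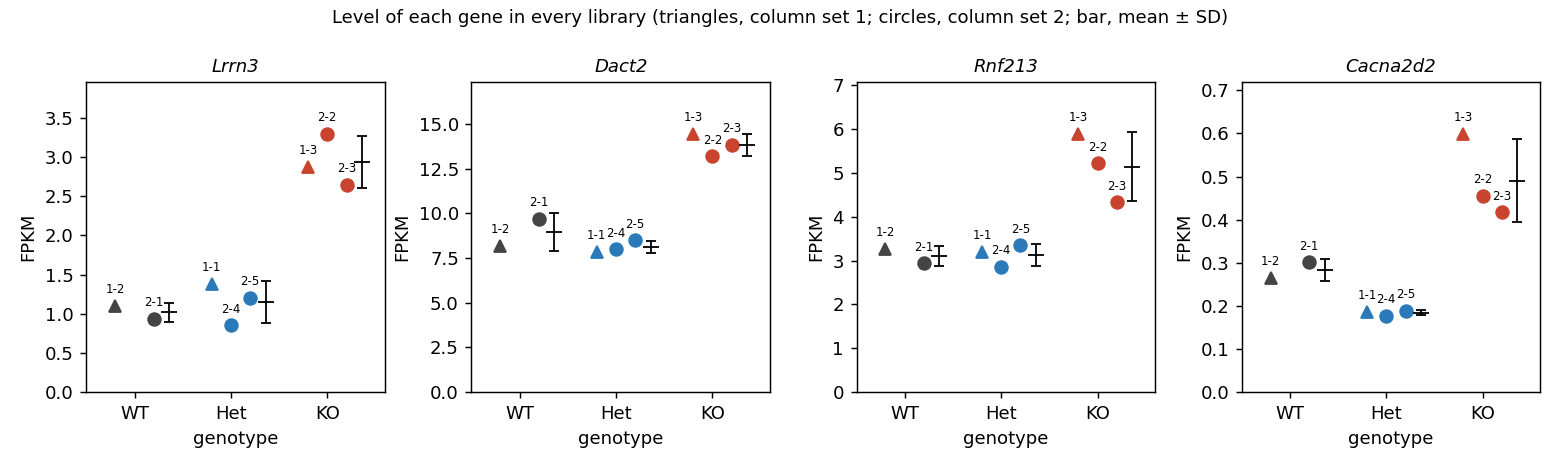
Level of Lrrn3, Dact2, Rnf213 and Cacna2d2 in FPKM in each WT, Het and KO library, with the mean ± SD of each genotype as a bar; triangles are column set 1 and circles column set 2. In each panel the 3 KO libraries lie above all 5 others, and in Cacna2d2 the Het libraries also lie below WT.

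Beside these values stands the background of all genes. In KO against the mean of WT and Het, edgeR's quasi-likelihood test called 0.0738% of 16262 genes higher (12 genes, Benjamini-Hochberg adjusted p below 0.05), and these 4 were among them, while 0.258% (42 genes) were called lower. The shares were 0.0615% for KO against Het, where all 4 were also called, and 0.0% for KO against WT, where none was, 0.0369% of genes were called lower and 7.19% had an unadjusted p below 0.05. All KO libraries were above all others in 4.21% of tested genes. These contrasts are the ones that chose the genes, so nothing is read from the counts. The fold changes of KO against WT were 1.53 ± 0.22 for Lrrn3, 0.63 ± 0.10 for Dact2 and 0.73 ± 0.12 for Rnf213, and those against Het were 1.36 ± 0.19, 0.77 ± 0.09 and 0.72 ± 0.11, all log2 ± SE. Both comparisons share the KO libraries.

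Fits made without 1 library gave log2 fold changes against the mean of WT and Het of 1.36 to 1.52 for Lrrn3, 0.64 to 0.77 for Dact2, 0.62 to 0.83 for Rnf213 and 0.94 to 1.21 for Cacna2d2. In these 8 fits edgeR called Lrrn3 and Dact2 8 times each, Rnf213 5 times (not without WT 1-2, WT 2-1 or Het 2-4) and Cacna2d2 0 times. As the contrast chose the genes, these calls rank nothing. Without KO 1-3, the difference of mean log2 CPM was 1.46 for Lrrn3, 0.69 for Dact2, 0.61 for Rnf213 and 1.00 for Cacna2d2, against 1.44, 0.72, 0.72 and 1.15 with it. KO 1-3 was the highest library for Dact2, Rnf213 and Cacna2d2 but not for Lrrn3.

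The difference was also computed within column sets and within libraries of like Xist level. Set 1 holds KO 1-3, WT 1-2 and Het 1-1, and in it KO was higher by 1.22 for Lrrn3, 0.85 for Dact2, 0.87 for Rnf213 and 1.43 for Cacna2d2 in mean log2 CPM. In set 2, with 2 KO and 3 other libraries, the values were 1.59, 0.64, 0.65 and 1.02. Xist, which silences an X chromosome in female cells, measured 802 to 1100 CPM in KO 1-3, WT 1-2, Het 1-1 and Het 2-4 and 1.52 to 3.57 CPM in the others. Among the libraries high in Xist the values were 1.40, 0.86, 0.93 and 1.54, and among those low in Xist they were 1.48, 0.57, 0.60 and 0.88. Every KO library lay above every other library in the genes as chosen, so the sign of these differences was fixed by the choice and only their size is described. Set 1 and the libraries high in Xist each rest on KO 1-3 as the 1 KO library.

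**Figure D2:**
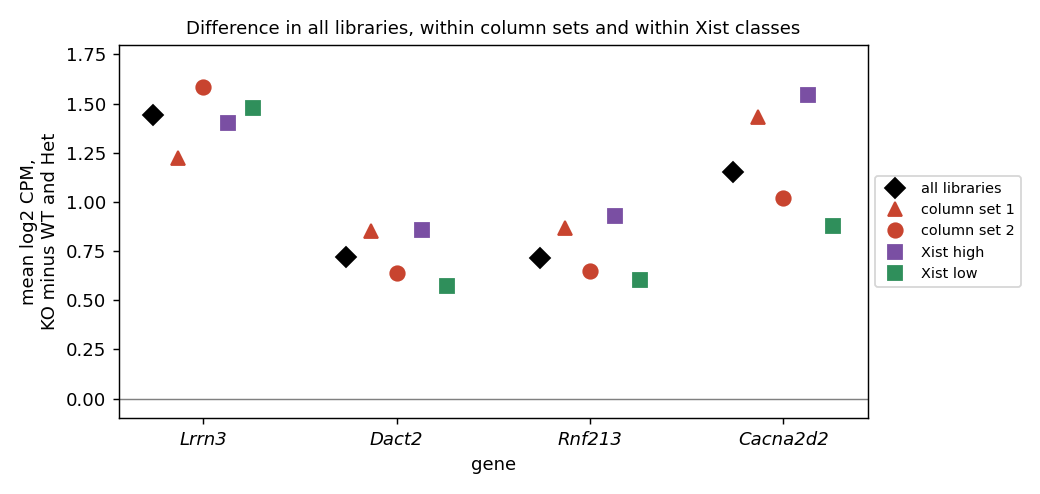
Difference in mean log2 CPM between KO and the WT and Het libraries for each gene, in all libraries, within each column set and within the libraries high or low in Xist. The differences range from 0.57 for Dact2 among libraries low in Xist to 1.59 for Lrrn3 in column set 2, and their sign was fixed by the choice of the genes.

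The comparison of Het with WT did not itself choose the genes, and it asks whether the loss of 1 Prtg allele changes them. It is not independent of the choice, because low WT or Het libraries also widen the rise in KO. For Cacna2d2 that rise was 1.41 against Het and 0.79 against WT, so its low Het values may have helped its choice. Its difference between Het and WT is therefore given as a description. None of the 4 was called by edgeR (adjusted p = 1.00 for each), where 0.0% of all genes were called and 292 genes (1.8%) had an unadjusted p below 0.05. The log2 difference of Lrrn3 was 0.17 ± 0.22, with a 95% interval from -0.32 to 0.66. For Dact2 it was -0.14 ± 0.10 (-0.36 to 0.07) and for Rnf213 0.01 ± 0.12 (-0.25 to 0.28). For Cacna2d2 it was -0.62 ± 0.26 (-1.19 to -0.05), and the unadjusted p of edgeR's quasi-likelihood test was 0.0365. Every Het library lay below both WT libraries, an order found in 8.92% of tested genes, while 9.19% had every Het library above WT. The intervals of Dact2 and Rnf213 leave room for a Het level between 0.780 and 1.05 times and between 0.839 and 1.21 times that of WT, while that of Cacna2d2 spans 0.438 to 0.968 times.

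In the Lrrn family, none of the other members was called in KO against the mean of WT and Het. Lrrn1 was at -0.11 ± 0.16, Lrrn2 at -0.18 ± 0.20 and Lrrn4 at 0.11 ± 0.10 (lowest edgeR adjusted p = 0.684), and without KO 1-3 Lrrn1 was at 0.041 and Lrrn4 at 0.062. Lrrn1 and Lrrn4 had higher levels per length than Lrrn3, with means of 4.04 and 4.26 FPKM over all libraries against 1.79 FPKM. Of 28 other genes for membrane proteins with leucine-rich repeats, 24 were tested and 0 called, 14 above 0, with a median of 0.09 against 0.01 over all genes tested. In this contrast 0.332% of all tested genes were called in either direction and 51.65% lay above 0, so 0 calls in this list and in those that follow are near the background. The smallest p-values were those of Slitrk1 (-1.81 ± 0.54, edgeR adjusted p = 0.245), which rests on 2 to 16 counts per library, and Lrrc4b (1.195 ± 0.37, edgeR adjusted p = 0.258), which rests on 4 to 21. Both encode neuronal adhesion proteins.

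The other 2 Dact genes had values of the opposite sign to Dact2. Dact1, which also encodes a Dishevelled-binding scaffold, was at 21.9 and 19.6 FPKM in WT 1-2 and 2-1, 20.2, 17.7 and 19.1 FPKM in Het 1-1, 2-4 and 2-5, and 13.9, 16.7 and 16.9 FPKM in KO 1-3, 2-2 and 2-3. Dact3 was at 14.2 and 13.1 FPKM in WT, 14.2, 14.6 and 12.3 FPKM in Het, and 9.24, 10.5 and 10.9 FPKM in KO, in the same order of libraries. For both genes all KO libraries were below all others, as in 4.41% of tested genes. The log2 fold change of KO against the mean of WT and Het was -0.32 ± 0.08 for Dact1 (edgeR adjusted p = 0.178) and -0.41 ± 0.08 for Dact3 (edgeR adjusted p = 0.0824), so neither was called. DESeq2 called both (adjusted p = 0.0323 and 0.00462), but it called 125 of 16262 genes lower where edgeR called 42. Leaving out 1 library in edgeR gave -0.37 to -0.24 for Dact1 and -0.47 to -0.35 for Dact3. In WT libraries Dact2 was the least abundant of the 3 Dact genes per length, and in KO libraries its mean of 13.8 ± 0.627 FPKM lay between 10.2 ± 0.868 for Dact3 and 15.8 ± 1.66 for Dact1 (SD, n = 3).

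**Figure D3:**
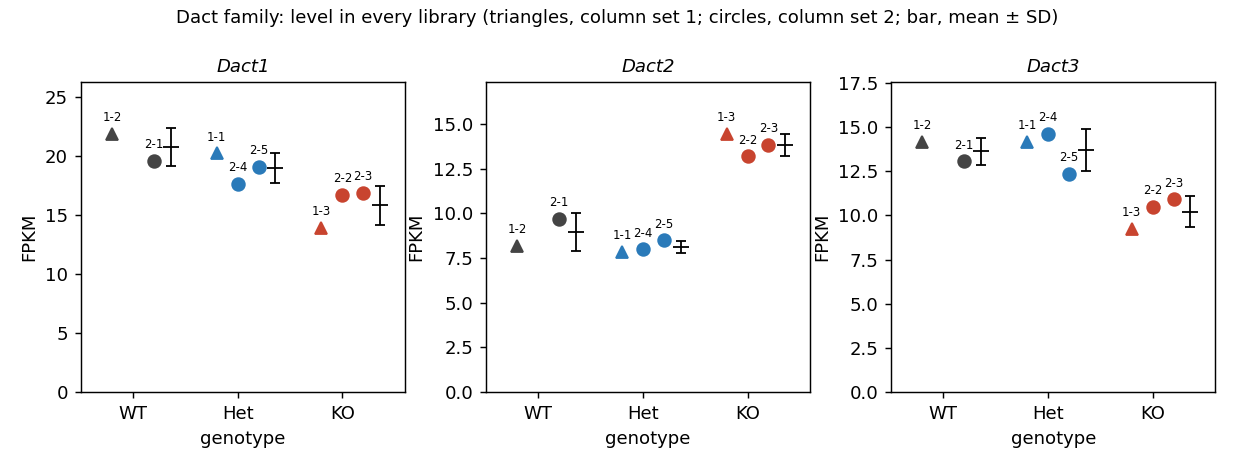
Level of Dact1, Dact2 and Dact3 in FPKM in each library, with the mean ± SD of each genotype as a bar; triangles are column set 1 and circles column set 2. The KO libraries lie above all others for Dact2 and below all others for Dact1 and Dact3.

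Genes that act with Dact proteins were not called. Of 24 genes of Dishevelled and planar cell polarity, which pass WNT signals and orient cells in a tissue, 22 were tested and 0 called, 13 above 0, with a median of 0.04 and a range from -0.23 to 0.22. Those with the smallest p were Ror1, a WNT5A receptor (0.22 ± 0.10, edgeR adjusted p = 0.395), and Dvl2, a Dishevelled gene (0.13 ± 0.06, edgeR adjusted p = 0.442; 0.049 without KO 1-3). Of the type I receptors of activin and Nodal ligands, Tgfbr1 was at -0.06 ± 0.06 and Acvr1b at -0.01 ± 0.08 (edgeR adjusted p = 0.711 and 0.977), and Acvr1c was below the filter. Without KO 1-3 they were at 0.0054 and -0.097.

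Rnf213 is itself induced by interferon, and other such genes were measured beside it. Of 36 genes induced by interferon, 20 passed the filter and 0 were called, 9 above 0, with a median of -0.03. Their summed level was 117 to 126 CPM in WT, 113 to 121 in Het and 115 to 136 in KO, so the groups overlapped. Oasl2, an antiviral gene, had the smallest p and lay below 0 (-1.60 ± 0.37, edgeR adjusted p = 0.139), on 15 to 26 counts in WT and Het libraries and 4 to 9 in KO. Ddx58, which encodes the RNA sensor RIG-I, was at 0.37 ± 0.13 (edgeR adjusted p = 0.322). Of 11 genes for enzymes and substrates linked to RNF213, 10 were tested and 0 called, with a median of -0.04. Ube2l3, which encodes a ubiquitin-conjugating enzyme, was at -0.22 ± 0.08 (edgeR adjusted p = 0.336) and Pnpla2, a triglyceride lipase gene, at 0.28 ± 0.14 (edgeR adjusted p = 0.453). Without KO 1-3 they were at -0.11 and 0.064.

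No other tested member of the Cacna2d family was called. Cacna2d1 was at 0.13 ± 0.13, Cacna2d3 at -0.33 ± 0.42 and the related Cachd1 at -0.15 ± 0.05 in KO against the mean of WT and Het (lowest edgeR adjusted p = 0.320), and Cacna2d4 was below the filter. Without KO 1-3, Cacna2d1 was at 0.035 and Cacna2d3 at -0.17. Cachd1 was the most abundant of them per length, at a mean of 16.0 FPKM over all libraries, followed by Cacna2d1 at 1.27 and Cacna2d2 at 0.324 FPKM. Of the 10 genes for the pore of voltage-gated calcium channels, 7 were tested and 0 called, 3 above 0. Cacna1g, a T-type channel gene, was at -0.69 ± 0.18 (edgeR adjusted p = 0.200) and Cacna1b, an N-type channel gene, at 0.66 ± 0.22 (edgeR adjusted p = 0.289). DESeq2 called Cacna1g (adjusted p = 0.0167) among the 125 genes it called lower. Of 12 genes for beta and gamma subunits, 6 were tested and 0 called, with Cacnb3 at -0.25 ± 0.08 and Cacnb2 at 0.20 ± 0.14 (edgeR adjusted p = 0.256 and 0.603).

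**Figure D4:**
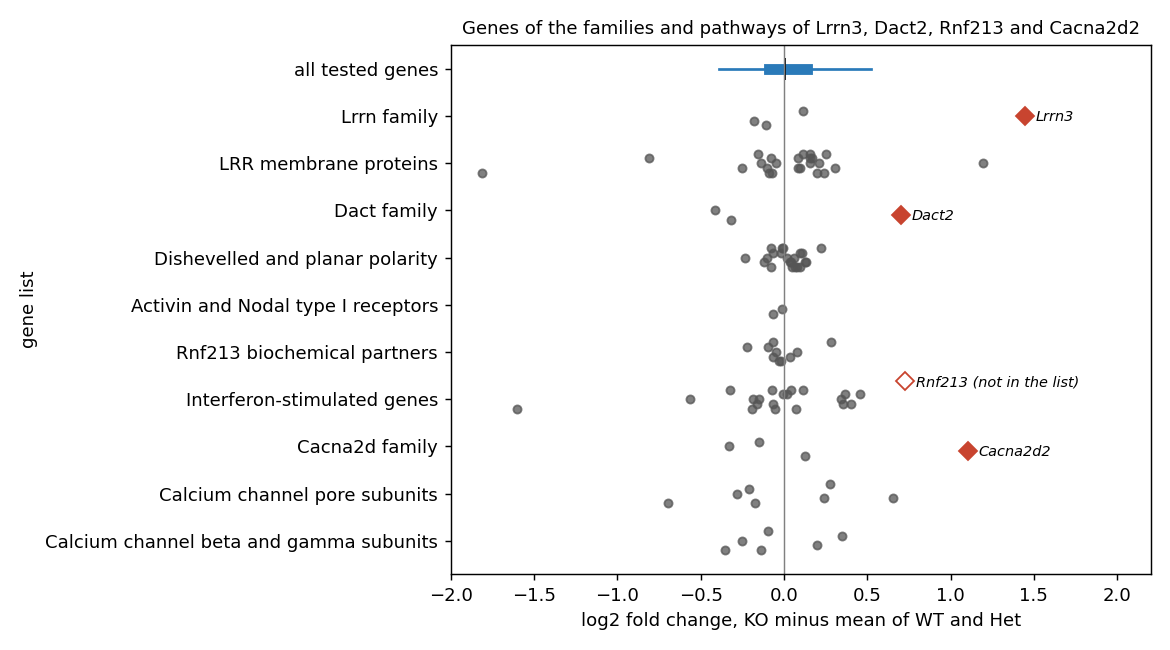
Log2 fold change of KO against the mean of WT and Het for each tested gene of the family and pathway lists (points; red diamonds are the 4 genes), with the 5th to 95th percentile (line), quartiles (thick line) and median (tick) of all tested genes at the top. The 4 genes lie between 0.70 and 1.44. Their relatives and partners lie on both sides of 0, from Slitrk1 at -1.81 to Lrrc4b at 1.195, which is within the range of the 4 genes. Dact1 and Dact3 lie below 0.

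Nearby and overlapping genes were examined because the kit named in the labels does not mark strand. Lrrn3 lies within Immp2l, a mitochondrial peptidase gene on the opposite strand, but their exons share 0 bases in GENCODE M21. Immp2l was at 13 to 19 counts in WT and Het and at 44, 23 and 15 in KO 1-3, 2-2 and 2-3 (0.76 ± 0.36, edgeR adjusted p = 0.431), so its KO libraries overlapped the others, and without KO 1-3 it was at 0.23. A930037H05Rik shares 1476 bases, or 8.74% of the exonic length, with Rnf213 on the opposite strand and was at 0.19 ± 0.16 (edgeR adjusted p = 0.672; 0.068 without KO 1-3). The antisense RNAs that share 73 bases with Dact2 and 82 with Cacna2d2 held at most 1 count in any library. In the shared bases, reads from either strand were not separable.

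The nearest tested genes on either side did not pass the test. For Dact2 these were Afdn (0.07 ± 0.05), 288902 bases away, and Smoc2 (0.05 ± 0.16), 75202 bases away. For Rnf213 they were Slc26a11 (0.33 ± 0.18), 12021 bases away, and Endov (0.02 ± 0.07), 3929 bases away. For Lrrn3 they were distant: Dock4 (-0.04 ± 0.10) lay 604794 bases away and Dnajb9 (-0.08 ± 0.10) 2719128 bases away. For Cacna2d2 they were 6430571L13Rik (-0.58 ± 0.59), 47190 bases away, and Tmem115 (-0.01 ± 0.08), 4602 bases away. The lowest adjusted p among the 8 neighbours was 0.504 in edgeR. Without KO 1-3, Slc26a11 was at 0.092, Smoc2 at -0.14, 6430571L13Rik at -0.20 and Endov at 0.0031.

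In whole trunk tissue, a change in the number of cells that express a gene and a change of RNA per cell cannot be told apart, so markers of the cell types present were measured beside the 4 genes. Of the 8 posterior trunk markers, 5 were above 0 and 1 (Hoxb9) was called higher, where 0.0738% of all tested genes were. The 8 summed to 949.7 and 1139 CPM in WT, 934.8 to 1078 in Het and 1174 to 1307 in KO. The sum was thus higher in every KO library, an order found in 4.21% of tested genes taken singly. Hoxb9 alone was at 248 to 283 CPM in WT and Het and 342 to 401 in KO, and no sum without it was made. T (-0.12), Hoxc9 (-0.21) and Meox1 (-0.07) lay below 0. The value of Meox1 rests on KO 1-3, at 92.4 CPM. Meox1 was at 164.8 and 152.5 CPM in KO 2-2 and 2-3, against 139.5 to 155.2 in WT and Het. All 8 neuron markers were tested and 0 were called, 4 above 0 in KO against the mean of WT and Het. Their summed level was 60.02 and 61.1 CPM in WT, 58.7 to 65.4 in Het and 52.7 to 54.8 in KO, so it was lowest in the knockouts. The genes with the smallest p were Isl1, a motor and sensory neuron gene (-0.68 ± 0.14, edgeR adjusted p = 0.0801), and Nefl, a neurofilament gene (0.51 ± 0.17, edgeR adjusted p = 0.279). Without Isl1, a sum taken after the values were seen, the markers were at 28.8 and 35.3 CPM in WT, 26.6 to 33.8 in Het and 33.7 to 36.3 in KO, and the genotypes overlapped. Of the 8 markers of neural tube progenitors, 7 were tested, 5 were above 0 and 1, Irx3, was called higher, against the same 0.0738% of all tested genes. The 8 summed to 178 and 203 CPM in WT, 182 to 199 in Het and 214 to 224 in KO. Irx3 alone was at 76.8 to 84.4 CPM in WT and Het and 98.8 to 109 in KO, and no sum without it was made. The part of these markers in the levels of the 4 genes was not tested.

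The 8 endothelial markers, relevant to Rnf213, were all tested with 0 called and overlapped between genotypes, at 399 and 400 CPM in WT, 387 to 430 in Het and 350 to 433 in KO. Surface ectoderm markers, 8 of 8 tested and 0 called, summed to 508 to 598 CPM in WT and Het and to 786, 578 and 636 CPM in KO 1-3, 2-2 and 2-3. Markers of somites and myotome, 8 of 8 tested and 0 called, summed to 319 to 351 CPM in WT and Het, 238 in KO 1-3 and 374 and 354 in KO 2-2 and 2-3. Presomitic mesoderm (8 of 8 tested), primitive erythroid (6 of 6) and yolk sac endoderm (5 of 6) also had 0 called markers. They overlapped between genotypes, at 340.5 to 416 CPM in WT and Het against 382 to 437 in KO, 2669 to 5468 against 3790 to 6056, and 13.1 to 26.5 against 12.2 to 31.1. Macrophage markers, 1 of 6 tested, summed to 1.58 CPM at most. No marker in these lists was at 0 in every library.

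The genes with the most similar profile were sought by Pearson's r of log2(CPM + 1) over the 8 libraries, among 12213 genes with a mean of at least 1 FPKM. These values are descriptions: the 8 libraries are few, and the genotype difference that chose the genes enters every r. Lrrn3 was closest to Gm19605 (0.971), Psen2 (0.967) and Rnf213 (0.954), and Rnf213 to Dhdh (0.976), March2 (0.972) and Pigg (0.971). Dact2 was closest to the trunk-stage nuclear receptor gene Nr6a1 (0.972), to Aldh4a1 (0.969) and to the trunk Hox gene Hoxb9 (0.968). Cacna2d2 was closest to Hoxb7 (0.987), Nsmce2 (0.981) and Igf2bp2 (0.977). With Spearman's rho in place of r, 1 of these 3 genes stayed among the first 3 for Rnf213 (Dhdh) and for Cacna2d2 (Hoxb7). For Lrrn3 and Dact2 it was 0. Neither measure shows the size of a difference. In KO against the mean of WT and Het, Cacna2d2 was at 1.10. There Hoxb7 was at 0.30 ± 0.07, Nsmce2 at 0.08 ± 0.06 and Igf2bp2 at 0.07 ± 0.05.

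In the KO libraries Cacna2d2 and Rnf213 deviated from their genotype means in log2 CPM by 0.30 and 0.21 in KO 1-3, where Lrrn3 was at -0.03. Lrrn3 was highest in KO 2-2 (0.17), where Dact2 was lowest (-0.07). All 4 genes were below their Het mean in Het 2-4, by -0.40 for Lrrn3, -0.14 for Rnf213, -0.06 for Cacna2d2 and -0.03 for Dact2. Counting intervals were taken on unscaled counts, and their overlap is no test of a difference. For Lrrn3 that of Het 1-1 (from 72.37) barely meets that of Het 2-4 (to 72.72). For Dact2 that of WT 2-1 (from 516.5) barely meets that of WT 1-2 (to 517.6). The intervals of Lrrn3, Dact2 and Cacna2d2 overlap within each genotype, and the order of libraries there is not read for these genes. Those of Rnf213 lie apart between the KO libraries and between Het 2-4 and Het 2-5.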

How the data were processed

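The deposited table gives the authors' raw counts for 55573 genes as whole numbers. The submitters' processing notes name HTSeq 0.6.1, HISAT2 2.0.1, cutadapt 1.9.1 and GRCm38/mm10, without roles or order. For annotation release and strand setting, no statement was found in the sources used here. FPKM was computed from the counts, column totals and the exonic lengths in the authors' table. The per-sample FPKM columns of that table were not used. Gene coordinates of the 4 genes equal those of GENCODE M21.

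Columns were assigned to genotypes by their names. Counts of all 8 libraries were fitted with edgeR 4.0.16 (R 4.3.3; TMM scaling, default expression filter, 1 mean per genotype, quasi-likelihood test, two-sided, Benjamini-Hochberg adjustment over 16262 genes). CPM is scaled by TMM. Each SE is the fold change divided by the root of its F statistic. Counting intervals used SciPy 1.17.1. Total counts per library are given above; KO 1-3 differed from the others in composition.

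The members, gene lists, motifs and rules were chosen with earlier results of these data known. Named genes are the 4 genes, tested family members, called list genes or else the 2 with the smallest p, the 3 most similar profiles and neighbouring genes. Alternatives were DESeq2 1.42.0, its size factors in edgeR, other filters, only compared groups, column set or Y-linked level as a term, a linear trend over alleles, and leaving out each library.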

Additional observations from a re-analysis of the deposited data

How the results depend on the processing

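No paired analysis was possible because the column names carry no sample number of the labels; the column set, whose meaning is unknown, was fitted as a term instead. In KO against the mean of WT and Het, Lrrn3 and Rnf213 moved by less than their replicate spread in the alternatives with all libraries, and the linear trend over alleles gave 0.53 for Dact2 and 0.73 for Cacna2d2, with none of the 4 genes called. Leaving out 1 library gave 1.36 to 1.52 for Lrrn3, 0.64 to 0.77 for Dact2, 0.62 to 0.83 for Rnf213 and 0.94 to 1.21 for Cacna2d2. In Het against WT it gave -0.061 to 0.089 for Rnf213. Cacna2d2 lost its call with the column set term, with the Y-linked covariate and with the strict filter (at least 50 counts in 2 libraries). The genes called higher numbered 24 in DESeq2, 100 with no filter, 3 with the column set term and 4 with the Y-linked covariate for KO against WT (0 as reported). For KO against Het they were 66, 256 with no filter, 0 with the linear trend and 2 with only the compared groups (10 as reported). In the contrast with both they were 77 in DESeq2 (beside 125 called lower), 307 with no filter (beside 207) and 0 with the trend (12 as reported). For Het against WT they were 1 in DESeq2 and 5 with no filter. Without 1 library they numbered 0 to 6, 0 to 16, 2 to 23 and 0 to 1. List genes called numbered 3 in DESeq2 (Dact1, Dact3 and Cacna1g), 4 with no filter (also Oasl2) and 0 to 1 without 1 library (Lrig1 without KO 1-3, Cacna1g without KO 2-2). Signs changed without 1 library for Lrrn1 (-0.25 to 0.041), Tgfbr1 (-0.10 to 0.0054), Acvr1b (-0.097 to 0.058), Dock4 (-0.11 to 0.026), Smoc2 (-0.14 to 0.23), Endov (-0.010 to 0.059) and Tmem115 (-0.058 to 0.024, and 0.0037 with the Y-linked covariate). Causes were not tested. The comparison with the deposited FPKM was not run. Depth limits Cacna2d2 most, with 24 to 81 counts per library.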
